A study of Mus musculus with 4 samples.

Results

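MYC is a transcription factor that drives growth genes. It binds DNA as a dimer with MAX, at a short site called the E-box. The MXD proteins (with MXI1, MXD3 and MXD4) and MNT take MAX away from MYC and repress the same sites, and MLX is a MAX-like partner for some of them and for the glucose-responsive factors MLXIP and MLXIPL. MYCBP, also called AMY-1, is a small protein that binds the amino-terminal part of MYC and also A-kinase anchoring proteins. In mast cells, as in other blood cells, MYC is known as an early response gene of growth factor receptors. The results below cover these 10 mouse genes, Myc, Mycn, Mycbp, Max, Mxd1, Mxd3, Mxd4, Mxi1, Mnt and Mlx, of 18193 genes measured. The group was selected on measured values: it was picked because Mycbp read lower with berberine in both pairs of arrays, so the berberine values of Mycbp describe that choice and support nothing by themselves. The other 9 genes were added as members of the network.

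The cells were MC/9, a mast cell line derived from fetal liver of (B6 X A/J)F1 mice, and each group was 1 Affymetrix Mouse Genome 430 2.0 array of total RNA. Untreated cells formed the control group. The BER group received 10 microM berberine, an alkaloid of medicinal plants known to act on complex I of mitochondria. The group labelled DNP received 500 microg/ml of IgE against the hapten dinitrophenyl, and BER+DNP cells received berberine together with that antibody. The treated groups had 24 h of treatment and then 6 h of culture, and no times are given for the control. The labels name no antigen step, and all groups are of 1 line. With 1 array in each group there is no replicate error and no p-value anywhere below, and the number of arrays limits the precision. A value is a log2 signal, and a difference of 1 on that scale is a doubling. The arrays had medians between 3.13 and 3.15 and correlated with each other between 0.988 and 0.991. A gene was read by its brightest probe set and counted where the mean signal reached 3.138, the median over the non-control probe sets, which left 12585 genes. Of 10 mast cell markers, 5 passed this filter: Gata2, Hdc, Tpsb2, Mcpt4 and Fcer1g, with mean signals from 5.87 (Gata2) to 3.56 (Fcer1g). Kit, Fcer1a, Ms4a2, Cpa3 and Mitf lay below the filter, so these defining markers do not bear out the labelled cell type here. Of 7 epithelial markers 6 passed, with Krt17 between 9.45 and 9.65 and Krt18 dimmest at a mean of 3.91, and Cdh1 lay below the filter. The medians of these 6 differed by -0.05 and 0.04 in the berberine pairs. Fibroblast markers passed in 5 of 6 and leukocyte markers in 3 of 6, with Ptprc, Cd53 and Coro1a below the filter. Of all 18193 genes 12585 passed, so a count of markers past the filter does not name a cell type. On RNA of a culture, fewer cells of a type and less RNA per cell cannot be told apart.

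The 10 genes were read by 26 probe sets, 19 of which passed the filter, and 0 were shared with another named gene. Promoter sequences, from RefSeq on GRCm38.p6, matched 9 of the 10 genes, all but Myc. The 250 bases before the start site are shown for Mycbp and Mlx, the pair of genes that read lowest with berberine. Capitals mark the E-box CACGTG, which reads the same on both strands, and the GC box GGGCGG or its reverse complement CCGCCC. The Mycbp stretch lies at chr4:123904763-123905012 (+ strand) and the Mlx stretch at chr11:101087040-101087289 (+ strand).
Mycbp: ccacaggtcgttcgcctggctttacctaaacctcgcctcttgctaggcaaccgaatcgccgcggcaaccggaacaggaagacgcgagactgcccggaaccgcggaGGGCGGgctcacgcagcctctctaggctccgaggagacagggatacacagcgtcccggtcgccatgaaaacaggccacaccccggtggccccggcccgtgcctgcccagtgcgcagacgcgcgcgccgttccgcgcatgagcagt
Mlx: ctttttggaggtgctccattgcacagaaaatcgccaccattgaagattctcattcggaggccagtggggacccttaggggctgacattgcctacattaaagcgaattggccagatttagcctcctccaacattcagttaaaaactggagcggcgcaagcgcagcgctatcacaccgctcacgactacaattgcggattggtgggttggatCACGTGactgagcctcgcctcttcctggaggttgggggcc
The Mycbp promoter held 1 GC box and 0 E-boxes, and the Mlx promoter 1 E-box and 0 GC boxes. In windows from 250 bases before to 50 after the start site, 4 of the 9 genes held CACGTG, against 8.09% of 27025 genes with such a window and 7.15% of their 32851 windows, since a gene can have several (Mxi1 has 3). The GC box was in 7 of the 9 genes, 38.2% of all genes and 35.7% of all windows. The E-boxes are shown with 10 bases on each side, in capitals, to show how their flanks differ, for Mxd4 at chr5:34187914-34187939 (- strand), Mnt at chr11:74830791-74830816 (+ strand), Mlx at chr11:101087240-101087265 (+ strand) and Max at chr12:76962236-76962261 (- strand).
Mxd4: gctgggccacCACGTGctgttgctaa
Mnt: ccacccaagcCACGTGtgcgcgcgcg
Mlx: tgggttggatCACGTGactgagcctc
Max: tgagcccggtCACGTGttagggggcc
Their first base lay 219, 123, 40 and 3 bases before the start site. A match is a run of letters and says nothing on binding in these cells.

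Mycbp read lower on both arrays with berberine. Its brightest probe set, 1427938_at, gave log2 signals of 8.60 in control and 8.57 in DNP, and 7.72 in BER and 7.89 in BER+DNP. The arrays with berberine were both below the arrays without it, and control and DNP differed by only -0.03. The difference was -0.88 (1.84-fold lower) between BER and control, called the first berberine pair below. It was -0.69 (1.61-fold lower) between BER+DNP and DNP, the second berberine pair, which shares no array with the first. By the mean of the pairs, -0.78, Mycbp was the 4th lowest of 12585 genes. BER+DNP against control gave -0.71, which shares its control array with the first pair.

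The other probe sets of Mycbp covered a wide range of signals, and 1 bright one read the same way. Probe set 1427939_s_at, whose suffix s marks probes that can match several transcripts, read 7.59 in control and 7.74 in DNP, and 7.02 in BER and 7.32 in BER+DNP. Its differences were -0.57 and -0.43, in the same direction but short of 1.5-fold in each pair. The remaining 3 probe sets were dim, with means of 2.63, 2.08 and 1.51, below the filter. Of these, 1452608_at gave -0.31 and -0.12, 1427940_s_at gave 0.19 and -0.30, and 1421165_at gave 0.14 and 0.10. Taken as the median over its 5 probe sets, Mycbp gave -0.31 and -0.30, under 1.5-fold in both pairs. Rragc, which encodes a GTPase of nutrient signalling and is the next gene after Mycbp in the RefSeq annotation, was dim and gave 0.16 and 0.02.

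Berberine also went with other differences along transcripts. Control probe sets for beta-actin near its 5' end gave -0.57 and -0.59 in the same pairs, and those near its 3' end -0.31 and -0.22. For Gapdh the 5' values were 0.05 and -0.08 and the 3' values -0.03 and 0.02. Their part in the Mycbp values was not tested.

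**Figure D1:**
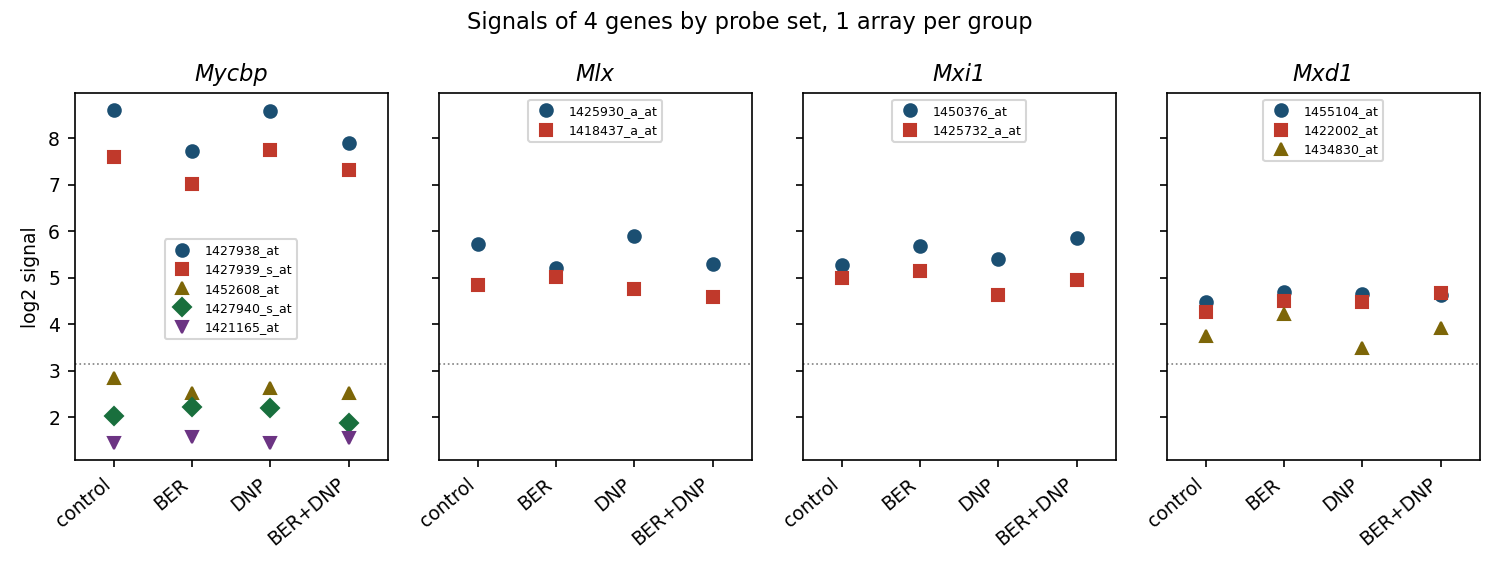
Log2 signal (vertical axis) of every probe set of Mycbp, Mlx, Mxi1 and Mxd1 on the 4 arrays (horizontal axis), 1 point per array; the dotted line is the filter at 3.138. The 2 bright Mycbp probe sets lie lower in BER and BER+DNP than in control and DNP, and the 2 Mlx probe sets do not move alike.

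Of the 9 genes that passed the filter, 1 (Mycbp) was at least 1.5-fold apart in the first berberine pair, where 1.99% of all genes were. In the second 2 were, Mycbp and Mlx, with 1.21% of all genes. Mycbp was the 1 gene at least 1.5-fold lower in both pairs, against 0.159% of all genes, and 0 members were 1.5-fold higher in both, against 0.0795%. Since the group was picked for Mycbp, nothing is read from its own calls. Without it, Mlx in 1 pair is the single berberine call. Mlx was under 1.5-fold there in 5 of 8 alternative settings, such as centring the arrays on their medians (-0.58). The other 3 read the same probe set on the same values, so they could not change it. The median difference of the 9 genes was -0.06 in the first pair and -0.02 in the second, and that of all genes 0.00 and -0.02.

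Myc itself was dim. Its single probe set, 1424942_a_at, read 2.60 in control and 2.62 in DNP, and 2.38 in BER and 2.35 in BER+DNP, at the 33.1st percentile of probe sets. Both berberine arrays read lower, by differences of -0.22 and -0.27, and the antibody gave 0.02 and -0.02. Sizes like these are common: the median size of a difference over all genes was 0.14 and 0.13 in these pairs, and the 90th percentile 0.38 and 0.35. The signal lay below the filter, so these values do not show whether Myc transcripts differed. Mycn, the neural relative of Myc, had a brighter probe set, 1425923_at, at 5.94 in control and 5.83 in DNP, and 5.88 in BER and 5.78 in BER+DNP. The 4 arrays were close, with berberine differences of -0.06 and -0.05. Its second probe set past the filter gave 0.03 and -0.01, and both probe sets read lower with the antibody, by -0.11 and -0.09 on the first and -0.24 and -0.29 on the second.

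Max, the shared partner, was read by 1423501_at at 4.10 in control and 4.36 in DNP, and 4.27 in BER and 4.34 in BER+DNP. Control was the lowest of the 4 arrays, so that each treated array read higher than it by 0.18, 0.27 and 0.25, and these differences share that 1 array. Berberine on top of the antibody gave -0.02. Mlx, the Max-like partner, had the lowest mean berberine difference of the members after Mycbp. Probe set 1425930_a_at read 5.73 in control and 5.90 in DNP, and 5.22 in BER and 5.30 in BER+DNP, with both berberine arrays below both others. The differences were -0.51 and -0.60 (1.42-fold and 1.51-fold lower), which by their mean placed Mlx 56th lowest of 12585 genes. A dimmer Mlx probe set, 1418437_a_at, read 4.85, 5.03, 4.76 and 4.59 in control, BER, DNP and BER+DNP. It gave 0.17 and -0.16, so the probe sets did not agree in direction in BER against control.

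Among the MXD repressors, Mxi1 read higher with berberine on both probe sets, Mxd1 on most of its values, and Mxd3 and Mxd4 had no common direction. Mxi1 read 5.26 in control and 5.41 in DNP, and 5.67 in BER and 5.86 in BER+DNP on 1450376_at, with both berberine arrays above both others. The differences of 0.41 and 0.45 (1.33-fold and 1.37-fold) fell short of 1.5-fold but placed Mxi1 97th highest of 12585 genes by their mean. Its second probe set, 1425732_a_at, gave 0.15 and 0.33 in the same direction. That probe set read 5.00 in control and 4.63 in DNP, and 5.14 in BER and 4.96 in BER+DNP, where control lay above BER+DNP.

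Mxd1, first described as MAD1, passed the filter on 3 probe sets. The brightest, 1455104_at, read 4.48 in control and 4.66 in DNP, and 4.68 in BER and 4.63 in BER+DNP, with differences of 0.20 and -0.03. The next, 1422002_at, gave 0.24 and 0.20. The dimmest, 1434830_at, read 3.74 in control and 3.48 in DNP, and 4.23 in BER and 3.93 in BER+DNP and gave 0.48 and 0.45, the highest berberine values of any member probe set in BER against control. Of the 6 berberine differences of Mxd1, 1 lay below 0. Mxd3, tied to dividing cells, read 5.78 in control and 5.52 in DNP, and 5.68 in BER and 5.67 in BER+DNP on 1422970_at, its 1 probe set past the filter. It gave -0.10 and 0.14, opposite signs of a size near that of the median gene.

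Mxd4 showed how far probe sets of 1 gene can part. On its brightest, 1422575_at, it read 4.24 in control and 4.49 in DNP, and 4.09 in BER and 4.72 in BER+DNP. BER+DNP was the highest array, 0.62 (1.54-fold) above BER. The other 3 probe sets of Mxd4, all past the filter, gave -0.21, -0.37 and -0.30 in that comparison, each in the opposite direction. In the berberine pairs the 4 probe sets gave -0.14 and 0.22, -0.10 and -0.33, 0.42 and 0.10, and 0.09 and -0.30. Mnt, a widely expressed MAX partner, was bright on 1418192_at, at 8.05 in control and 7.94 in DNP, and 8.28 in BER and 7.96 in BER+DNP. BER stood above the other 3 arrays, giving 0.23 against control, while BER+DNP against DNP gave 0.01. Its second probe set gave -0.02 and -0.09.

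**Figure D2:**
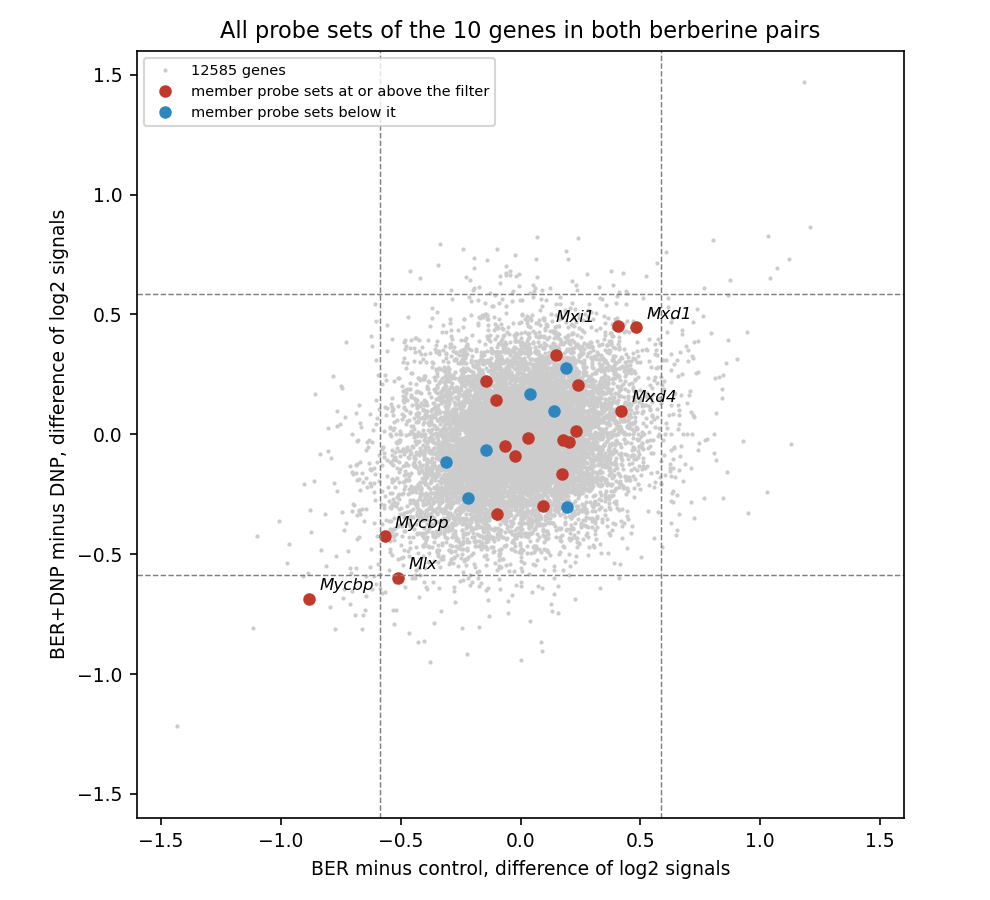
Difference of log2 signals in BER minus control (horizontal) against BER+DNP minus DNP (vertical) for the 26 probe sets of the 10 genes, over 12585 genes in grey; dashed lines mark 1.5-fold. The brightest Mycbp probe set lies past 1.5-fold on both axes, its second probe set and one of Mlx lie near it, and 1 probe set each of Mxi1 and Mxd1 lie farthest on the opposite side.

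Over the 19 probe sets past the filter, 6 lay below 0 in both berberine pairs and 6 above 0 in both (31.6% each). Over all 22519 probe sets past the filter the shares were 28.9% and 25.5%. The 6 below were those of Mycbp and 1 each of Mycn, Mxd4, Mnt and Mlx, and the 6 above were those of Mxi1, 2 of Mxd1, 1 of Mxd4 and 1 of Mnt. The share below rests in part on the 2 Mycbp probe sets, whose gene the group was picked for, so nothing is read from it.

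The anti-DNP IgE pairs were not used to choose the group. In DNP against control, 0 of the 9 genes were at least 1.5-fold apart, where 1.43% of all genes were. In BER+DNP against BER 1 was, Mxd4 as above, where 0.914% of all genes were. In both pairs in the same direction there were 0 members, against 0.0318% of all genes. Mycbp gave -0.03 and 0.17, and its second bright probe set 0.16 and 0.30. Max gave 0.27 and 0.07, Mxd3 -0.26 and -0.01, Mnt -0.10 and -0.32, Mxi1 0.15 and 0.19 and Mlx 0.17 and 0.08. On these brightest probe sets the values of the 6 genes lay under the 90th percentile of size over all genes, 0.36 and 0.34 in these pairs. Second probe sets read the other way for Mxi1 (-0.37 and -0.18), for Mnt (0.13 and 0.06) and for Mlx (-0.10 and -0.43), where the first value of Mxi1 and the second of Mlx lay past that percentile. The 3 probe sets of Mxd1 gave 0.18 and -0.06, 0.22 and 0.18, and -0.26 and -0.30. No direction common to the probe sets was seen for these 4 genes in the antibody pairs. The median of the 9 genes was 0.15 and 0.07 and that of all genes 0.02 and 0.00.

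**Figure D3:**
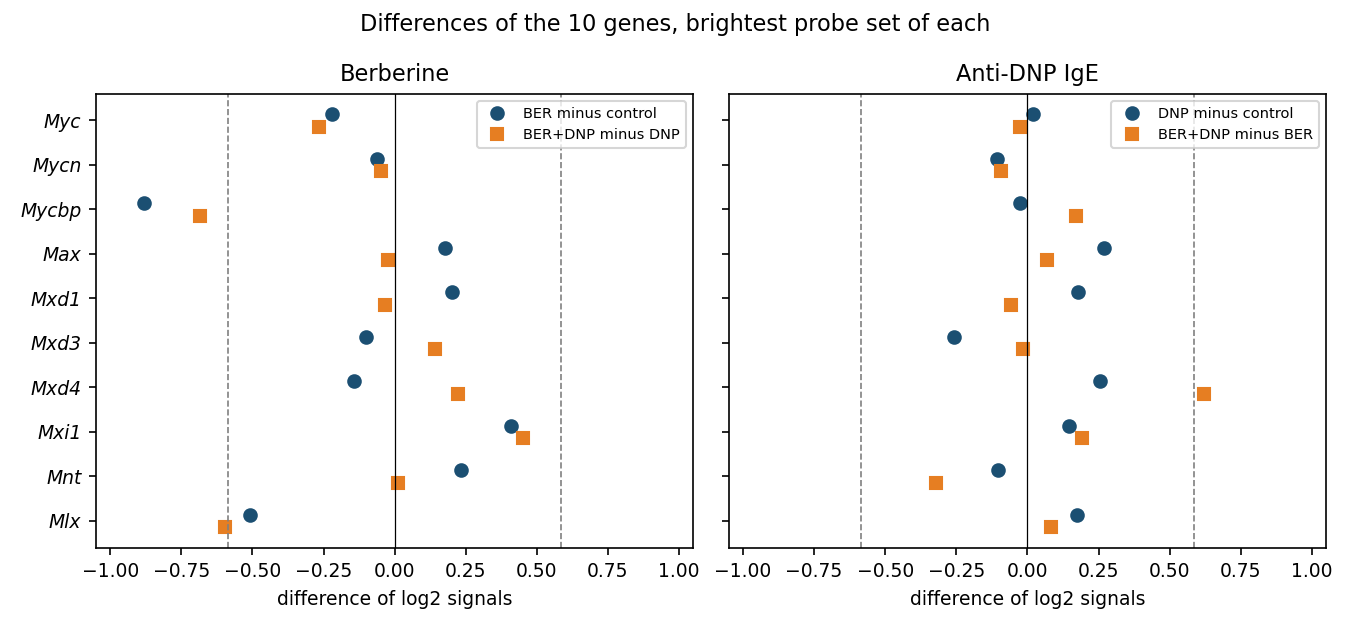
Difference of log2 signals (horizontal axis) of each of the 10 genes (rows), read by its brightest probe set, in the 2 berberine pairs (left) and the 2 anti-DNP IgE pairs (right), 1 value per pair of arrays; dashed lines mark 1.5-fold. Mycbp and Mlx lie farthest to the left in both berberine pairs and Mxi1 farthest to the right. Myc and Mycn also lie left of 0 in both. In the antibody pairs Mxd4 alone passes a dashed line, in BER+DNP minus BER.

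Genes known to be induced by MYC were set beside the network, 36 in number, of which 35 passed the filter. Their median was -0.05 in the first berberine pair and -0.06 in the second, where all genes had 0.00 and -0.02. Below 0 in both pairs were 16 of the 35 (45.7%) and above 0 in both 7 (20.0%), against 29.7% and 25.4% of all genes. At least 1.5-fold apart were 1 of 35 in the first pair, Nop56, where 1.99% of all genes were, and 0 in the second, where 1.21% were. The 4 genes with the largest mean berberine difference were Nop56, Mcm7, Bop1 and Ldha. Nop56, a nucleolar protein of snoRNA complexes, gave -0.75 and -0.32, but its other probe set past the filter gave -0.08 and -0.04. Bop1, needed for the large ribosomal subunit, gave -0.55 and -0.36, and its other probe set 0.07 and -0.12. Mcm7, a subunit of the replicative helicase, read lower in both pairs on all 4 of its probe sets past the filter, 3 of which carry the suffix s or x of probes that can match several transcripts, from -0.54 and -0.40 on the brightest to -0.23 and -0.18 on the dimmest. Ldha, which makes lactate from pyruvate, gave -0.29 and -0.43 on its 1 probe set past the filter.

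Genes known to be repressed by MYC had medians of 0.10 and 0.00 over 11 of 12 listed. Of the 11, 4 (36.4%) lay above 0 in both berberine pairs and 2 (18.2%) below, against 25.4% and 29.7% of all genes. With 11 genes, 1 gene more or less moves these shares widely. Cdkn1c, a cell cycle inhibitor, read 3.71 in control and 3.10 in DNP, and 3.19 in BER and 3.07 in BER+DNP. Control stood apart from the 3 treated arrays, and the differences from it, -0.52 in BER and -0.61 in DNP, share that array and end near or below the filter. Klf2, a transcription factor of quiescent cells, gave -0.32 and -0.05, Cebpa, of myeloid differentiation, 0.26 and 0.12, and Gadd45b, a stress-induced gene, 0.25 and 0.09. Another Gadd45b probe set, nearly as bright, gave -0.12 and -0.16, and a dim one 0.57 and 0.18.

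Of the 23 genes named from the lists, 14 had 2 or more probe sets past the filter, and in 3 of these every one had the signs of the brightest in both berberine pairs. Genes of MYC coactivators had medians of -0.01 in the first pair and -0.21 in the second over 8 genes. In either pair 0 of 8 reached 1.5-fold, where 1.99% and 1.21% of all genes did, too few to expect 1 among 8. Actl6a, of chromatin remodelling complexes, gave 0.06 and -0.47, Ruvbl2, an ATPase of the same kind of complexes, -0.02 and -0.28, the acetyltransferase gene Kat2a 0.01 and -0.19 and Ccnt1, the cyclin of the elongation factor P-TEFb, -0.22 and -0.16. Other probe sets past the filter gave 0.25 and -0.17, and -0.15 and -0.24 for Actl6a, and -0.27 and 0.19 for Ccnt1. The 7 further network genes past the filter had medians of 0.22 and -0.10. Among them Mga, a MAX partner, gave -0.13 and -0.26, Zbtb17, which encodes the MYC partner MIZ1, 0.33 and -0.01, the corepressor gene Sin3a 0.34 and -0.05 and Mlxipl 0.20 and 0.12. Zbtb17 gave -0.20 and -0.26 on a probe set about as bright. Mga gave 0.15 and -0.23, and 0.49 and 0.24 on its other probe sets past the filter, and Sin3a 0.00 and -0.46.

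Genes of MYC turnover and phosphorylation had medians of 0.03 and -0.06 over 10 genes. Of these 0 reached 1.5-fold in either pair, where 1.99% and 1.21% of all genes did. Set, an inhibitor of the phosphatase PP2A, gave -0.17 and -0.14, Gsk3b, the kinase that marks MYC for destruction, 0.13 and 0.12, Skp2, a ubiquitin ligase subunit, -0.18 and -0.04 and the mitotic kinase gene Aurka 0.12 and -0.33. The next bright probe set of Gsk3b read the other way, at -0.22 and -0.18, and a dim one gave 0.04 and 0.24. Those of Set gave -0.04 and -0.14, and -0.19 and 0.16. Among the partners of MYCBP, Akap1, a mitochondrial A-kinase anchoring protein, gave -0.26 and -0.32, with 0.33 and -0.03 on its second probe set. Arfgef2, an exchange factor of vesicle traffic, gave 0.05 and -0.24, with -0.08 and -0.22 on its second. Mycbp2, a ubiquitin ligase named for binding MYC, gave -0.05 and -0.04 on its brightest probe set, and 0.16 and 0.19, 0.04 and 0.41, -0.03 and 0.28, and 0.00 and -0.15 on the other 4 past the filter.

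**Figure D4:**
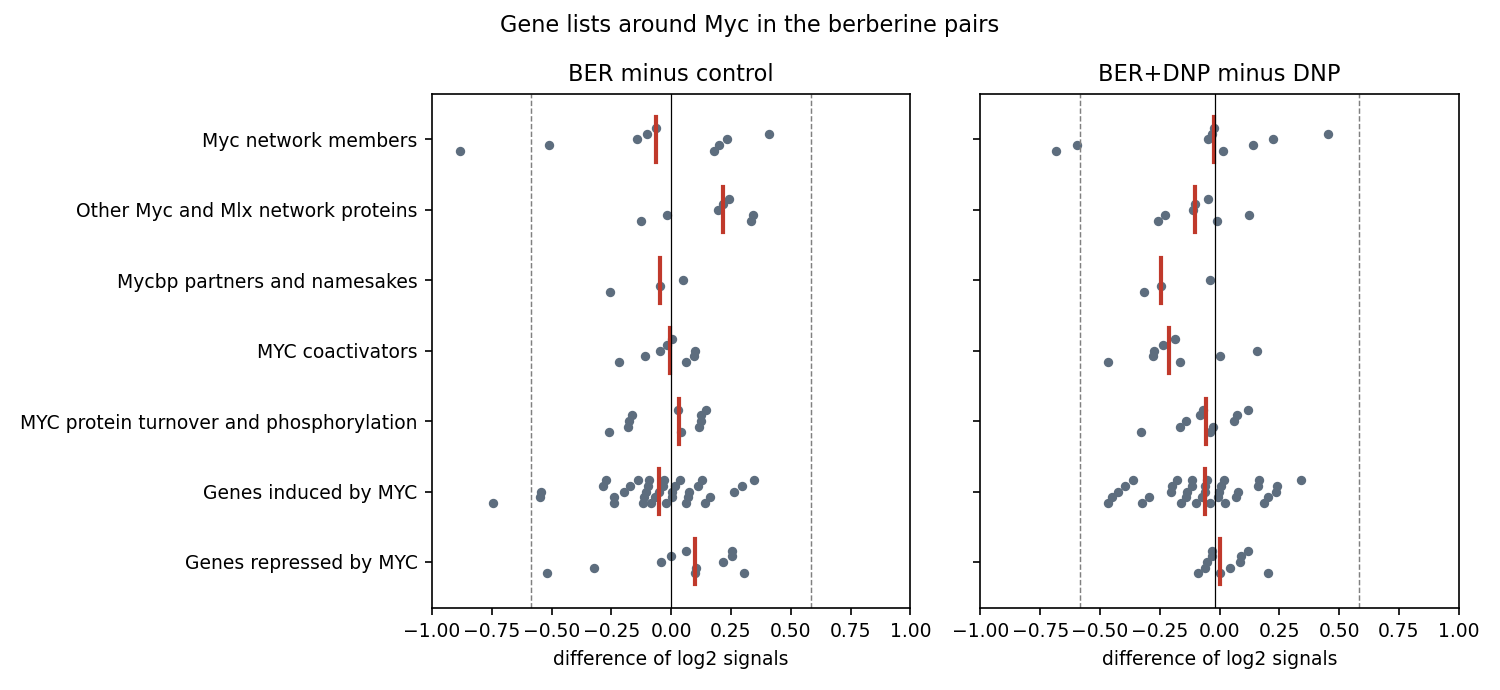
Difference of log2 signals (horizontal axis) of the genes past the filter in each list (rows), in BER minus control (left) and BER+DNP minus DNP (right); each point is 1 gene, the red bar the list's median, the solid line the median of all genes and dashed lines 1.5-fold. The medians of genes induced by MYC, -0.05 and -0.06, lie close to that line, and few points pass 1.5-fold.

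Genes with and without an E-box were compared across the arrays as a description. The 1085 genes past the filter with CACGTG in their promoter window had medians of -0.01 in the first berberine pair and -0.04 in the second. The 8972 without it had 0.00 and -0.02. Below 0 in both pairs were 32.9% of the former and 29.6% of the latter. Among the genes induced by MYC, 9 of the 29 with a promoter held CACGTG (31.0%), with medians of -0.02 and -0.14, and the 20 without it had -0.01 and -0.05.

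The genes whose pattern was closest to that of Mycbp were found by the Euclidean distance of log2 profiles over the 4 arrays, each gene centred on its own mean. They were Filip1l, at a distance of 0.107, Ywhaq (0.123), Dpysl3 (0.127), Wdr77 (0.151) and Tcf4 (0.152). All 5 read lower with berberine, by differences from -0.83 to -0.71 in the first pair and from -0.72 to -0.48 in the second, as the measure requires. Within 0.1 of the Myc profile lay 336 genes, and the nearest, Lbx2, Lypd2, Adcyap1r1, Rpap3 and Hexa, lay 0.0098 to 0.018 away. Of Mycbp, 0 of 12584 genes lay within 0.1. The distance is not scaled to the size of the differences, so a gene with small differences has more near neighbours than one with large differences. Mycbp was picked for its berberine differences, so nothing is read from these counts.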

How the data were processed

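The values are deposited log2 signals, 1 for each of 45101 probe sets on each of 4 arrays. Affymetrix Expression Console is the tool that the submitters' processing notes name. Its version and settings, such as how probes were summarised and whether a probe set was called present, are not given in the sources. The log2 scale was read from the deposited values, which run from 1.05 to 13.96, and the values were used as deposited because the array medians were alike. Apart from 64 control probe sets, 34945 probe sets have 1 symbol in a platform annotation of 2016, 932 several and 9160 none. A gene was read by its brightest probe set by mean signal and counted at or above 3.138. Because the mean includes all arrays, a gene that read lower can drop below the filter. Differences were taken between arrays and counted from 1.5-fold. Named genes were all 10 members, and in each other list the genes 1.5-fold apart in both pairs of a kind and up to 4 with the largest mean berberine difference. The members and lists were chosen with earlier results of these data known. The 6 lists of the network and 4 of cell type markers hold 115 entries. Leukocyte markers passed the filter in 3 of 6 and fibroblast markers in 5 of 6. Cfap91 was matched as Maats1. The steps were tested on simulated data with Python 3.11.15, numpy 2.4.6 and pandas 2.3.3. Alternatives were quantile normalization, centring on array medians, 32 added to the linear signals, other choices of probe set and other filters.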

Additional observations from a re-analysis of the deposited data

Results flagged for a closer look

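Aurka, the mitotic kinase gene, differed in opposite directions in the 2 anti-DNP IgE pairs: 0.21 in DNP against control and -0.23 in BER+DNP against BER. It was taken up because both sizes reached 0.2, a limit set after the data were seen, and the difference between the pairs was not tested. Both sizes lay under the 90th percentile over all genes, 0.36 and 0.34. A dimmer Aurka probe set, below the filter, gave -0.35 and -0.15, the same direction in both pairs.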

How the results depend on the processing

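Mycbp, for whose berberine values the group was picked, stayed below 0 in both berberine pairs under all 8 alternatives. The last of these was chosen after seeing the data. With no filter, a filter set to the 75th percentile or no probe sets of suffix x or s, each member kept was read by the same probe set. These settings could therefore not change a difference. In the first pair (BER, control) Mycbp ranged from -0.88 to -0.31 and was under 1.5-fold with the median over its probe sets (-0.31). In the second (BER+DNP, DNP) it was under 1.5-fold with quantile normalization (-0.58), the median over its probe sets (-0.30) and the median of the probe sets past the filter (-0.56). The number of members 1.5-fold apart in both berberine pairs, 1, was 0 under these 3 settings. The 1 in BER+DNP against BER, Mxd4, was 0 with 32 added to the signals and with either median of probe sets, where Mxd4 turned to -0.25 (all its probe sets pass the filter, so both medians are the same). Mlx in BER+DNP against DNP was under 1.5-fold in 5 alternatives, between -0.58 and -0.36, and the rest could not change its value. Of 252 values of the other members under alternatives, 244 kept their side of 1.5-fold, 6 fell under it and 2, those of Mxd4, reversed. Values that a setting could not change count as kept, and so do values under 1.5-fold whatever their sign, some of which changed sign. With the median over its probe sets, Mxi1 in DNP against control went from 0.15 to -0.11. Mlx in BER+DNP against BER went from 0.08 to -0.17 there, and Mxd1 in BER+DNP against DNP from -0.03 to 0.20. The medians of genes induced by MYC, -0.05 and -0.06, moved by less than 0.1, a limit larger than their own size. They ranged from -0.06 to -0.02 in the first berberine pair and from -0.11 to -0.03 in the second.

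Over all genes, 251 and 152 passed 1.5-fold in the first and second berberine pairs and 180 and 115 in the antibody pairs. Adding 32 left 23, 16, 1 and 2, the median over a gene's probe sets left 99, 64, 81 and 50, and a filter set to the 75th percentile left 128, 81, 78 and 47. The 20 genes lower in both berberine pairs were 12 with quantile normalization, 8 with 32 added, 6 and 7 with the medians and 13 without probe sets of suffix x or s. Dim signals limit Myc, which lay below the filter, and detection calls are not given.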
